A study of Mus musculus with 40 samples.

Results

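The genes described here are 38 mouse genes of the unfolded protein response and of the response to amino acid shortage, followed in CD4 T cells that lacked the signalling protein MALT1 or were wild type (WT). They were chosen by symbol: all probes that the platform's probe-to-gene table assigns to the 38 symbols were taken. Of the 38 genes, 37 had a probe, the exception being Slc7a5, which is named only. The number tested was 35, of 10730 genes tested in all and 19057 with a probe of 1 symbol. Psph, the last enzyme of serine synthesis, was detected on at most 1 array and Slc7a1, a carrier of cationic amino acids, on at most 2, so both failed the detection filter.

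Messenger RNA was measured on 40 Illumina MouseWG-6 bead arrays in 8 groups of 5. Naive CD62L+ CD4+ T cells had been taken from the spleens and lymph nodes of C57BL6 mice aged 8 to 12 weeks. The groups were Malt1-/- Th17, WT Th17, Malt1-/- Th1 and WT Th1 cells, each at 72 h and at 48 h after induction towards the named helper lineage. All groups shared the induction step, and an uninduced sample is not analysed here. The sources used here do not give how the cultures were stimulated, and the knockout is labelled by genotype alone, with no cell type named to which the loss is limited. The labels do not say that replicates came from separate animals or cultures, so a p-value weighs a difference only against the spread of these arrays, and that spread may be technical. The number of arrays limits the precision. Levels below are background-corrected and quantile-normalised log2 signals, differences are in log2 units with their standard error (SE), and a gene is called higher or lower when its limma p, adjusted over all 10730 genes by Benjamini-Hochberg, is under 0.05.

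As background, cells answer unfolded protein in the endoplasmic reticulum (ER) and lack of amino acids through partly shared routes. Kinases that sense either stress phosphorylate the initiation factor eIF2, which slows general translation and raises translation of the transcription factor ATF4. ATF4 and its partners switch on genes for amino acid synthesis, amino acid transport and further regulators, while the ER sensors IRE1 and ATF6 switch on chaperones and the machinery that removes misfolded protein from the ER. Activated T cells use amino acid uptake and one-carbon metabolism to grow and divide.

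Some promoters of the members carry the letters of the sites known for these routes. Those of Asns, Trib3, Ddit3, Psat1, Sesn2, Xbp1 and Edem1, among others, held none of the letters searched. RefSeq start sites on build GRCm38.p6 gave windows for 34 members, with 250 bases before and 50 after each start, 38 windows in all. The C/EBP-ATF response element, searched as TTGCATCA on both strands, was in the windows of 6 of the 34 members (17.6%) and in those of 1.03% of 27025 genes. The ER stress response element, searched on both strands as CCAAT and CCACG with 9 bases between them, was found for 7 of the 34 (20.6%), namely Calr, Creld2, Dnajc3, Hsp90b1, Hspa5, Pdia6 and Syvn1, and for 0.137% of all genes. The related element ERSE-II, searched on both strands as ATTGG and CCACG with any 1 base between them, was found for 1 member, Herpud1 (2.94%, against 0.0444% of all genes). The cyclic AMP element TGACGTCA was found for Ppp1r15a alone (2.94% and 2.03%), and TGACGTGG for 0 members (0.714% of all genes). None of these matches overlapped a match of another motif, and a match says only that the letters are there. The 250 bases before the start are shown for Atf3, Chac1 and Slc7a11, which were the 3 called between lineages among the 6 with the C/EBP-ATF letters (the others being Herpud1, Nupr1 and Vldlr), for the ER chaperones Hspa5 and Hsp90b1, and for Herpud1, which holds both kinds of site. Capitals mark the matched letters. They begin at -110 from the start in Atf3, -193 in Chac1, -66 and -47 in Slc7a11, -65 in Hspa5, -212 and -107 in Hsp90b1, and -112 and -52 in Herpud1, and Slc7a11 and Hsp90b1 each hold a match on either strand.
Atf3, chr1:191183334-191183583, minus strand: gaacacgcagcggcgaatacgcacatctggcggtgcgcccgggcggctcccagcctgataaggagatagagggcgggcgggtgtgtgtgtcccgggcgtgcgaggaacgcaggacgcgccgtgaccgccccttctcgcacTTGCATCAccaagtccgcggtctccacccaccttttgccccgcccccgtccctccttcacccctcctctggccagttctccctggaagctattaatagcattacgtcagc
Chac1, chr2:119350992-119351241, plus strand: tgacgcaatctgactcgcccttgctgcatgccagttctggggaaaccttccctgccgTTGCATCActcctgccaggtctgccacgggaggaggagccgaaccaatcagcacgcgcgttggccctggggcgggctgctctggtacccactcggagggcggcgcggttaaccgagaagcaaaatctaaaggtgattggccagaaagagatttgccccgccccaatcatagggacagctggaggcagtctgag
Slc7a11, chr3:50443614-50443863, minus strand: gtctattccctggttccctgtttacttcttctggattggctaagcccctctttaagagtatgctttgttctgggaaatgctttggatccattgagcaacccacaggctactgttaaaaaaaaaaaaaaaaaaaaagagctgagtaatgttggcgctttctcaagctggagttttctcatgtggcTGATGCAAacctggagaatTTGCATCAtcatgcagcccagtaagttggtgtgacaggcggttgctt
Hspa5, chr2:34771840-34772089, plus strand: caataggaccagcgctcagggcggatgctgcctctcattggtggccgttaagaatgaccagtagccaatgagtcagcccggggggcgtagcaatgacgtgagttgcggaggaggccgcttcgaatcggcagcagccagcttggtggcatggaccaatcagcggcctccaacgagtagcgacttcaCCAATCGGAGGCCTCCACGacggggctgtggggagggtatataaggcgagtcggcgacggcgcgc
Hsp90b1, chr10:86705445-86705694, minus strand: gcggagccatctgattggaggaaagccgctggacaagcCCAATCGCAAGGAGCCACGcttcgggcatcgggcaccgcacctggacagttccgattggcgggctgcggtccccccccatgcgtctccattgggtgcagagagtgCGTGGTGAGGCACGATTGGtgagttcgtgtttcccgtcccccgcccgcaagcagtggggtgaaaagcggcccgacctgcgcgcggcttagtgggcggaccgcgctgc
Herpud1, chr8:94386179-94386428, plus strand: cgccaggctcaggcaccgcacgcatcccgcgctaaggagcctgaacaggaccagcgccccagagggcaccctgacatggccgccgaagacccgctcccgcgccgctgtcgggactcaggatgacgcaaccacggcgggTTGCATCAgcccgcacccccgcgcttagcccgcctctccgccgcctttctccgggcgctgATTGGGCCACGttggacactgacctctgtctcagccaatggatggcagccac

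The arrays were checked against their labels. Between 14640 and 17409 probes were detected per array. Malt1 itself averaged 7.93 in Malt1-/- and 12.68 in WT Th17 cells at 72 h, 8.64 and 12.49 at 48 h, 6.50 and 11.42 in Th1 cells at 72 h, and 6.70 and 10.80 at 48 h, with no overlap between genotypes. The T cell markers Cd3d, Cd3e, Cd3g and Cd4 were detected on all arrays. All 4 tested Th17 markers (Il17a, Il17f, Rora, Ccr6) were higher in Th17 than in Th1 cells in each of the 4 lineage comparisons, and 4 of 5 Th1 markers were lower, Cxcr3 being higher. The markers Il17a and Il17f were lower in Malt1-/- than in WT Th17 cells at both times. Markers of myeloid cells moved with Malt1-/- Th17 cells: 5 of 7 tested were higher there than in Malt1-/- Th1 cells at 72 h and 4 at 48 h, and 4 were higher than in WT Th17 cells at 72 h and 1 at 48 h. Their summed signal ran from 563.3 to 6179.3 in Malt1-/- Th17 cells at 72 h, against 218.4 to 379.5 in WT Th17 cells, and from 324.6 to 1974.6 at 48 h, against 252.2 to 342.0. S100a8 and S100a9 led them, while Csf1r and Tyrobp were detected on 0 of 5 arrays in both Malt1-/- Th17 groups, and Itgam, Cd14 and Adgre1 did not pass the detection filter. For 2 tested NK cell markers the summed signal ran from 1841.1 to 7704.9 over the Th1 arrays and from 126.6 to 1007.0 over the Th17 arrays. That of 5 tested B and plasma cell markers ran from 234.7 to 5156.8 over all arrays. The CD8 T cell marker Cd8b1 was detected on all 5 arrays of each group. The part of the myeloid and these other markers in the results below was not tested. In bulk samples, fewer cells of a type and less RNA per cell cannot be told apart. Of the 40 arrays, 8 correlated better with the mean of another group than with that of their own, namely Malt1-/- Th17 72 h replicate 2, WT Th17 72 h replicates 4 and 5, WT Th17 48 h replicate 5, Malt1-/- Th1 72 h replicate 2, WT Th1 72 h replicate 4, Malt1-/- Th1 48 h replicate 2 and WT Th1 48 h replicate 1, and results that rest on such arrays are also given without them. Each lay nearest to a group of its own lineage. The WT arrays among them lay nearest to a Malt1-/- group, and the Malt1-/- arrays to the other time of their own genotype.

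Th17 cells had less of many of these transcripts than Th1 cells, in both genotypes and at both times. Of the 35 members, 17 were called lower in Th17 cells without Malt1 at 72 h, 11 in WT cells at 72 h, and 6 in each genotype at 48 h. The share of all 10730 genes called lower was 9.16% in Malt1-/- and 9.2% in WT cells at 72 h, and 8.72% in Malt1-/- and 7.26% in WT cells at 48 h. In all 4 comparisons 0 members were called higher, although 11.6% of all genes in Malt1-/- and 9.66% in WT cells were at 72 h, and 9.83% in Malt1-/- and 10.2% in WT cells at 48 h. That count of 0 held for the fit reported here: in Malt1-/- cells at 48 h, 1 member was higher under median scaling of the arrays, 3 with array weights and 4 in a fit of that comparison's arrays alone. These settings called 13.6%, 33.2% and 29.5% of all genes, and 70.7%, 50.9% and 51.3% of those calls were higher. At least 1 comparison called 20 of the 35 lower (57.1%, against 17.8% of all genes), and 21 lay below 0 in all 4 (60%, against 22.4%). The median member differed by -0.60 (Malt1-/-) and -0.46 (WT) at 72 h and by -0.18 and -0.43 at 48 h, while the median over all genes lay between -0.01 and 0.02. Under median scaling the Malt1-/- median at 48 h came to -0.01. These 4 comparisons share no arrays with each other, but they share each gene's variance from the single fit, and they share arrays with the genotype and time comparisons below. Of the 40 calls, 22 were kept whichever of the 10 arrays was left out, 22 under every other alternative tried, and 19 under both. Without the 8 arrays named above, 16 members were called lower at 72 h in Malt1-/- and 9 in WT cells, and 6 in each at 48 h, with 2 (Nupr1 and Dnajb9) higher in Malt1-/- cells at 48 h. Of all genes, 9.55% and 7.9% were then lower at 72 h and 9.67% and 7.16% at 48 h (Malt1-/- and WT). In Malt1-/- cells at 48 h 10.8% were higher. At 72 h in Malt1-/- cells 11 members were called without Malt1-/- Th1 replicate 5, and at 72 h in WT cells 7 without WT Th17 replicate 3 or 4. At 48 h in WT cells 3 were called without WT Th17 replicate 5 or WT Th1 replicate 3. Of all genes, 8.4% were lower in WT cells at 72 h without WT Th17 replicate 4. In WT cells at 48 h 6.51% were lower without WT Th17 replicate 5. The shares without the other single arrays are not given here.

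**Figure D1:**
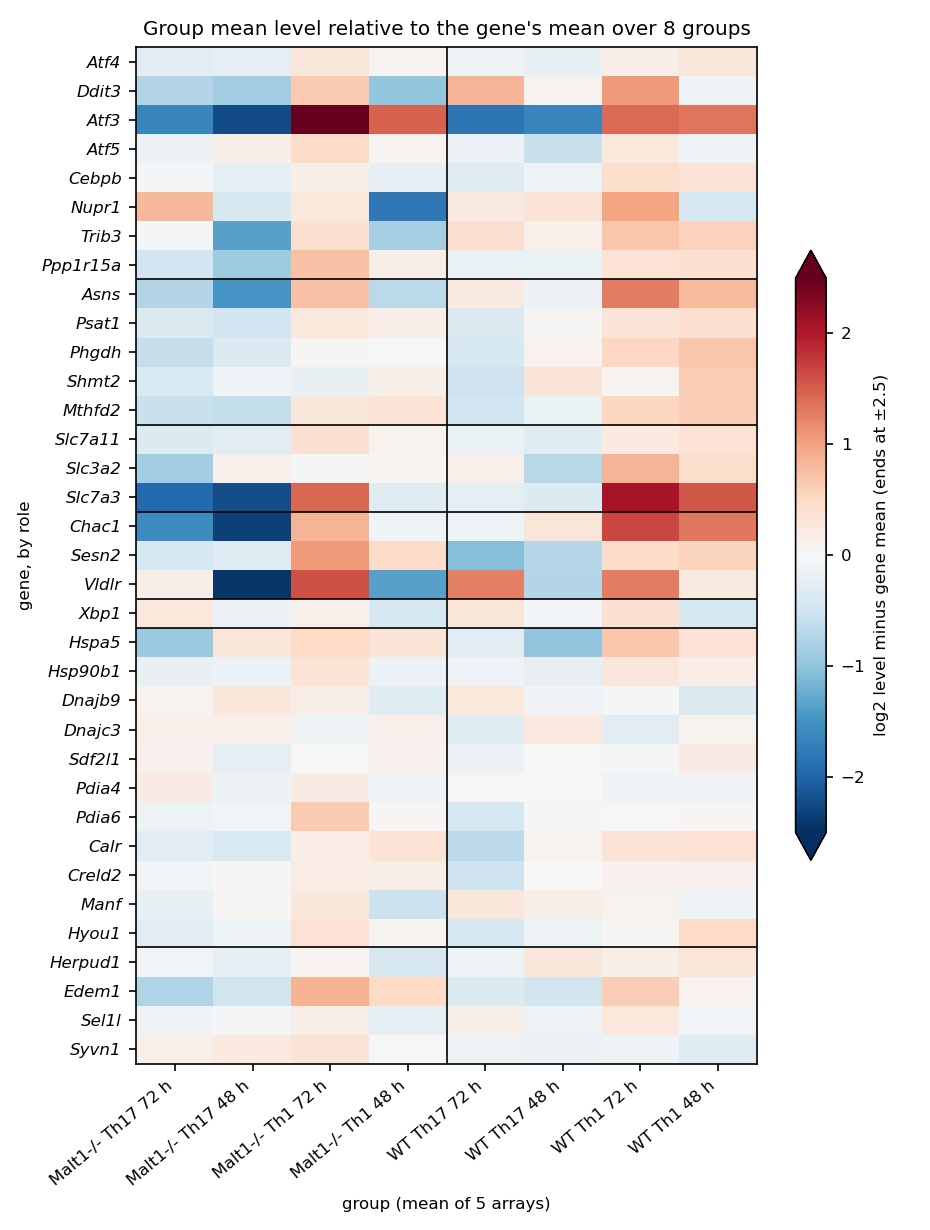
Mean log2 level of each of the 35 tested members (rows, ordered by role) in the 8 groups (columns), centred on the member's mean over the groups, with red above and blue below it. Within each genotype and time, most rows are bluer in the Th17 column than in its Th1 column, most plainly Atf3, while Dnajb9, Dnajc3 and Nupr1 are redder in 3 of the 4 pairs.

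**Figure D2:**
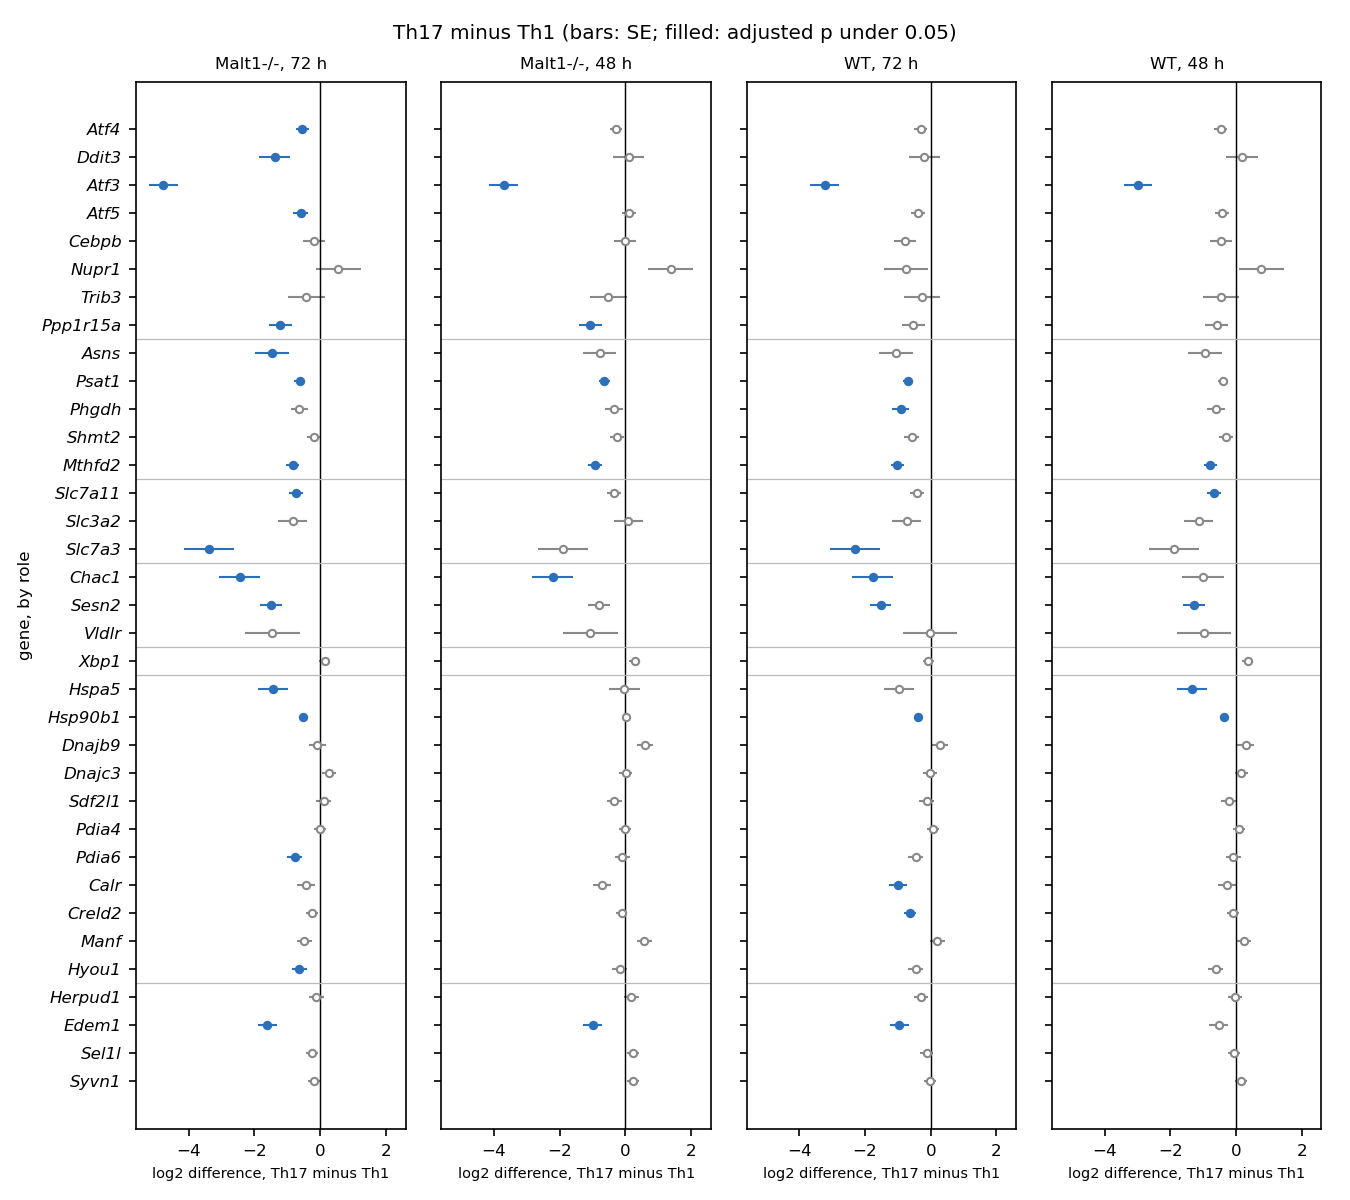
Th17 minus Th1 difference in log2 units for each tested member, with bars of 1 SE, in 4 panels by genotype and time (5 arrays per group). Filled blue points are members called lower; the fit plotted has 0 called higher, where median scaling gives 1 in Malt1-/- cells at 48 h. Atf3 lies far left in every panel.

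Among the regulators, Atf3 was the member that separated the lineages most. ATF3 is a stress-induced transcription factor that ATF4 switches on. At 72 h its level was 6.996, 5.52, 5.07, 4.88 and 6.03 on the 5 Malt1-/- Th17 arrays, against 10.72, 9.40, 10.92, 10.59 and 10.73 on the Malt1-/- Th1 arrays. On WT arrays it was 6.13, 6.50, 5.49, 4.96 and 4.50 in Th17 cells and 9.49, 9.21, 9.20, 7.40 and 8.43 in Th1 cells. The highest Th17 array lay below the lowest Th1 array in each genotype. At 48 h the values were 4.77, 5.06, 5.32, 5.29 and 5.04 in Malt1-/- Th17 cells and 8.53, 9.59, 8.06, 8.99 and 8.85 in Malt1-/- Th1 cells. The WT values at 48 h were 6.40, 6.53, 5.07, 5.91 and 4.52 in Th17 cells and 7.60, 9.66, 8.77, 9.05 and 8.27 in Th1 cells, again with no overlap. Th17 cells were thus 27.3-fold lower without Malt1 (difference -4.77, SE 0.44, limma adjusted p = 1.42e-10) and 9.39-fold lower in WT at 72 h (-3.23, adjusted p = 7.76e-07). At 48 h they were 13.1-fold (-3.71, adjusted p = 3.44e-08) and 7.92-fold lower (-2.98, adjusted p = 2.57e-06). Atf3 was detected on 2 or 3 of the 5 arrays of each Th17 group and on all Th1 arrays, so the low side of these folds lies near background. All 4 calls were kept whichever array was left out and under every alternative of processing tried.

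The other regulators moved less, and 4 of the remaining 7 were called, all in Malt1-/- cells. Ppp1r15a, which directs a phosphatase to eIF2 and so ends the arrest of translation, was 2.33-fold lower in Malt1-/- Th17 than Th1 cells at 72 h (-1.22, SE 0.35, adjusted p = 0.00913) and 2.1-fold lower at 48 h (adjusted p = 0.0271), the 48 h call ending without Malt1-/- Th1 replicate 2 or Malt1-/- Th17 replicate 1 (adjusted p up to 0.0689). Its WT differences were -0.53 at 72 h and -0.59 at 48 h and were not called (adjusted p = 0.324 and 0.274). Atf4, the central factor of the route, differed by -0.54 (SE 0.19, adjusted p = 0.0365), at 12.91 ± 0.19 in Malt1-/- Th17 and 13.45 ± 0.12 in Malt1-/- Th1 cells (SD, n = 5). ATF4 is set largely at translation, which these arrays do not read. Ddit3, which encodes the pro-death factor CHOP, was 2.61-fold lower (adjusted p = 0.0329), and Atf5, a related factor of mitochondrial and amino acid stress, was 1.51-fold lower (adjusted p = 0.0432), both at 72 h without Malt1. The 72 h calls of Atf4, Ddit3 and Atf5 ended when any 1 of 8, 7 and 6 of the 10 arrays was left out, with adjusted p up to 0.0945, 0.0967 and 0.114. Cebpb and Trib3 were below 0 in all 4 lineage comparisons and not called. Nupr1, a small stress-induced chromatin protein, was above 0 in 3, with 1.37 in Malt1-/- cells at 48 h (SE 0.68, adjusted p = 0.166).

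Of the 5 tested enzymes of amino acid and one-carbon synthesis, 4 were called lower in Th17 cells in at least 1 comparison. All 5 lay below 0 in all 4 comparisons. Mthfd2, the mitochondrial folate enzyme that yields one-carbon units, was the other member called in all 4 (its array values, like those of Asns and Hsp90b1, are shown because of these results and not by the rule for named genes). At 72 h it read 11.87, 11.61, 11.35, 11.39 and 11.88 in Malt1-/- Th17 cells and 12.63, 12.59, 12.48, 12.38 and 12.23 in Malt1-/- Th1 cells. In WT cells it read 11.84, 12.43, 11.48, 11.26 and 11.52 in Th17 cells and 13.24, 12.82, 12.91, 12.57 and 12.05 in Th1 cells, where Th17 replicate 2 overlapped the Th1 range. The differences were -0.84 (Malt1-/-, adjusted p = 0.00213) and -1.01 (WT, adjusted p = 0.000362) at 72 h, with an SE of 0.20. At 48 h they were -0.93 (adjusted p = 0.000849) and -0.78 (adjusted p = 0.00558), folds of 1.91 and 1.72. None of these 4 calls was lost by leaving out an array or under another processing tried.

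Psat1, the aminotransferase of serine synthesis, was called in 3 comparisons: -0.62 (Malt1-/-, adjusted p = 0.00424) and -0.69 (WT, adjusted p = 0.00219) at 72 h and -0.64 (Malt1-/-, adjusted p = 0.00414) at 48 h, with no overlap of arrays in any. Its WT difference at 48 h was -0.40 (SE 0.16, adjusted p = 0.0893). Phgdh, which starts serine synthesis, was called in WT cells at 72 h alone (-0.92, SE 0.27, adjusted p = 0.0126), and that call ended without WT Th17 replicate 4 or WT Th1 replicate 3 (adjusted p up to 0.0546), without the 8 arrays named above and with only the contrast's arrays (up to 0.0897). The Psat1 call in WT cells at 72 h was lost in a fit of only the contrast's arrays (adjusted p = 0.0617). Asns, asparagine synthetase, was 2.76-fold lower in Malt1-/- cells at 72 h (-1.47, SE 0.51, adjusted p = 0.0342). Its arrays read 11.29, 10.01, 10.96, 10.999 and 10.29 in Malt1-/- Th17 and 12.83, 11.10, 12.47, 11.71 and 12.78 in Malt1-/- Th1 cells, overlapping through Th1 replicate 2. That call was lost when any 1 of 5 of the 10 arrays was left out (adjusted p up to 0.094). Shmt2, the mitochondrial serine hydroxymethyltransferase, lay between -0.58 and -0.19 and was not called.

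Of the 3 tested transporters, 2 were called lower in Th17 cells, with wide scatter. Slc7a3 encodes a carrier of arginine and lysine. At 72 h it read 7.83, 5.01, 6.29, 5.89 and 5.69 in Malt1-/- Th17 cells, against 10.77, 8.18, 9.76, 8.98 and 9.90 in Malt1-/- Th1 cells. In WT cells it read 8.62, 9.83, 7.59, 5.22 and 7.98 in Th17 and 11.46, 11.005, 10.99, 8.34 and 8.92 in Th1 cells. The Malt1-/- groups did not overlap (10.4-fold lower, -3.38, SE 0.76, adjusted p = 0.000997), while the WT groups did (4.92-fold lower, -2.30, adjusted p = 0.0295), and the WT call ended with any 1 of 5 arrays left out (adjusted p up to 0.133). The 48 h differences were -1.91 (adjusted p = 0.0762) and -1.89 (adjusted p = 0.0832). Slc7a11, the cystine-glutamate exchanger, was not above background on any Malt1-/- Th17 array at 72 h but was detected on all 5 Malt1-/- Th1 arrays, at least 1.2-fold lower (adjusted p = 0.0139). Those arrays read 4.79 ± 0.09 and 5.52 ± 0.18 (SD, n = 5), with the detection floor of each array raising the low side of the bound. In WT cells at 48 h it was detected on 0 Th17 and 3 Th1 arrays, at least 1.13-fold lower (adjusted p = 0.0296), a call lost with any 1 of 5 arrays left out. Slc3a2, the heavy chain shared by several exchangers, was not called in any lineage comparison, its largest difference being -1.13 in WT cells at 48 h (SE 0.45, adjusted p = 0.0761).

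Further targets of ATF4 included some of the widest differences. Chac1 encodes an enzyme that breaks down glutathione. At 72 h it read 7.28, 6.01, 7.45, 6.80 and 6.26 in Malt1-/- Th17 cells and 9.53, 8.37, 9.44, 9.07 and 9.61 in Malt1-/- Th1 cells, and 8.87, 9.99, 8.15, 6.004 and 8.22 in WT Th17 cells and 10.65, 10.51, 10.50, 9.11 and 9.31 in WT Th1 cells. At 48 h the Malt1-/- arrays read 6.23, 5.91, 5.76, 5.72 and 6.49 in Th17 cells and 7.66, 10.30, 6.53, 8.70 and 7.99 in Th1 cells. The Malt1-/- lineages did not overlap at either time (5.45-fold lower in Th17 at 72 h, -2.45, SE 0.63, adjusted p = 0.00379; 4.64-fold at 48 h, -2.21, adjusted p = 0.0106), although the 48 h call ended without Malt1-/- Th1 replicate 2 (adjusted p = 0.0599). In WT cells the difference was -1.77 at 72 h (adjusted p = 0.0438, lost with any 1 of 6 arrays left out) and -1.002 at 48 h (adjusted p = 0.31). Sesn2, which restrains growth signalling when leucine is short, differed by -1.50 (Malt1-/-, adjusted p = 0.000748) and -1.53 (WT, adjusted p = 0.000836) at 72 h and by -1.27 in WT cells at 48 h (adjusted p = 0.00536), each with an SE of 0.33. In Malt1-/- cells at 48 h its difference was -0.80 (adjusted p = 0.087). All 3 Sesn2 calls were kept with each array left out and under the alternatives. Vldlr, a lipoprotein receptor, was below 0 in all 4 comparisons and not called, with -1.45 at 72 h in Malt1-/- cells (SE 0.83, adjusted p = 0.239).

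**Figure D3:**
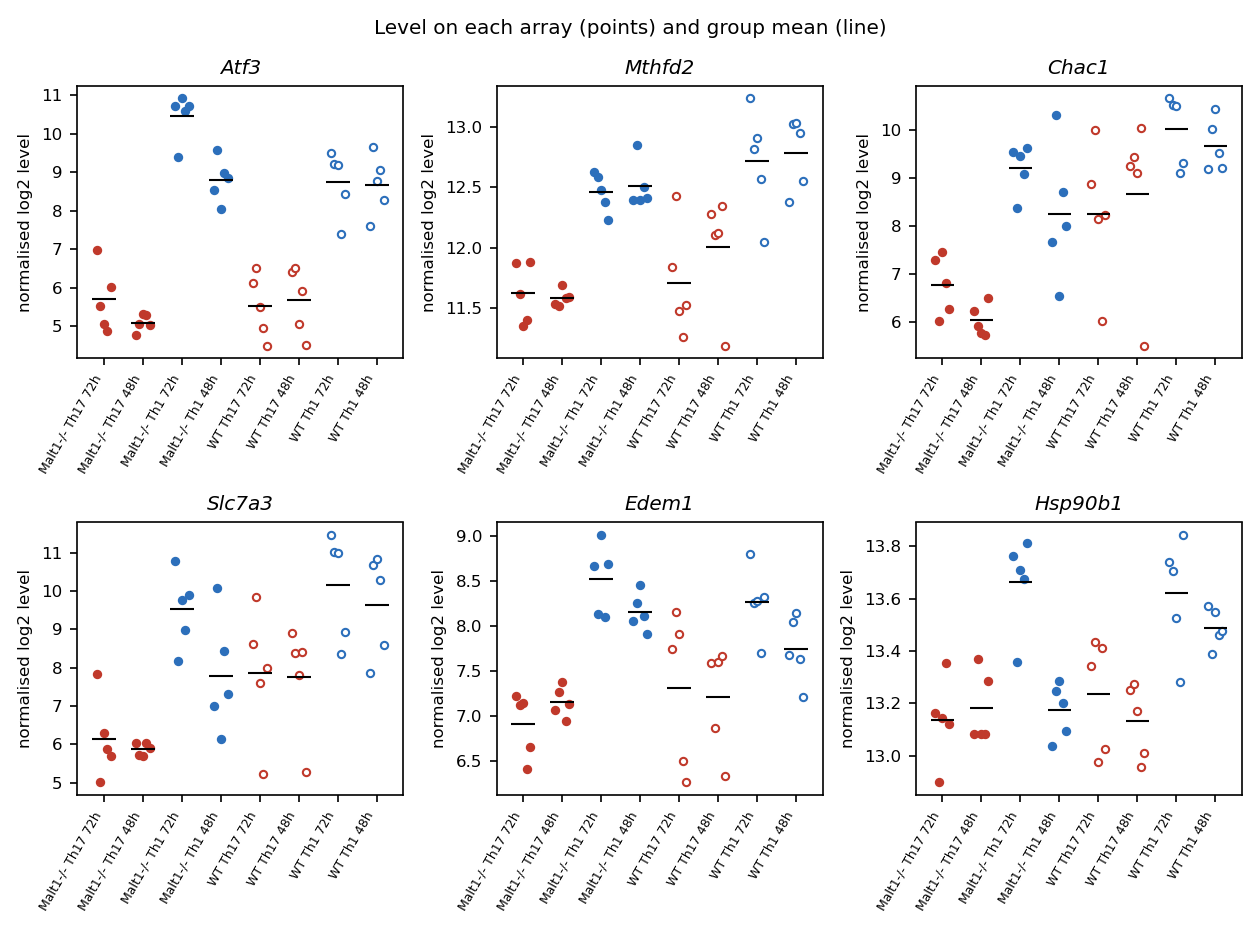
Log2 level of Atf3, Mthfd2, Chac1, Slc7a3, Edem1 and Hsp90b1 on every array, 1 panel per gene, with 5 points per group and a black line at the group mean. Red marks Th17 and blue Th1 cells, filled points Malt1-/- and open points WT. In the Atf3 panel all red points lie below all blue points, while in the Chac1 panel WT Th17 48 h replicate 5 (5.50) sits with the Malt1-/- Th17 arrays.

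Part of the ER genes were lower in Th17 cells too. Of the 16 tested, 5 and 4 were called lower in Th17 cells at 72 h (Malt1-/- and WT) and 1 and 2 at 48 h, against 12 and 7, and 5 and 4, of the 19 genes of the amino acid and ATF4 group. The share of all genes called lower was 9.16% and 9.2% at 72 h and 8.72% and 7.26% at 48 h. The 48 h counts of the ER genes lie near that share. Whether the shares of these groups differ was not tested. Edem1, a lectin that marks misfolded glycoproteins for removal from the ER, was the strongest of them. At 72 h it read 7.22, 7.12, 7.14, 6.41 and 6.65 in Malt1-/- Th17 and 8.67, 8.13, 9.01, 8.10 and 8.69 in Malt1-/- Th1 cells, and 7.74, 8.16, 7.91, 6.49 and 6.26 in WT Th17 and 8.80, 8.26, 8.28, 7.69 and 8.32 in WT Th1 cells. The Malt1-/- groups stood apart at 72 h (3.06-fold lower, -1.61, SE 0.28, adjusted p = 4.13e-05) and at 48 h (2-fold, -1.001, adjusted p = 0.0103). The WT groups overlapped at 72 h (-0.96, adjusted p = 0.0143), where leaving out WT Th17 replicate 4, WT Th17 replicate 5 or WT Th1 replicate 1 ended the call (adjusted p up to 0.0783), as did leaving out the 8 arrays named above or fitting only the contrast's arrays (up to 0.175). At 48 h the WT difference was -0.53 (adjusted p = 0.218). Herpud1, Sel1l and Syvn1, the other members of ER-associated degradation, were not called between lineages.

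Of the 11 chaperones and folding factors, 6 were called in at least 1 lineage comparison. Hsp90b1, the ER member of the HSP90 family and the member with the least scatter, read 13.16, 12.90, 13.14, 13.36 and 13.12 in Malt1-/- Th17 cells and 13.76, 13.36, 13.71, 13.67 and 13.81 in Malt1-/- Th1 cells at 72 h, where Th17 replicate 4 and Th1 replicate 2 all but met. Its difference was -0.53 there (SE 0.12, adjusted p = 0.000694), -0.38 in WT cells at 72 h (adjusted p = 0.0158) and -0.36 in WT cells at 48 h (adjusted p = 0.0269). The WT calls ended without WT Th17 replicate 3 or 5 at 72 h and with any 1 of 4 arrays left out at 48 h (adjusted p up to 0.0617 and 0.0793). In Malt1-/- cells at 48 h the difference was 0.01. Hspa5, the master ER chaperone BiP, was 2.72-fold lower in Malt1-/- Th17 cells at 72 h (adjusted p = 0.0222) and 2.54-fold lower in WT Th17 cells at 48 h (adjusted p = 0.0389), each with overlapping arrays. These Hspa5 calls ended with any 1 of 4 and 6 of the 10 arrays left out (adjusted p up to 0.0855 and 0.122). The disulfide isomerase Pdia6 and the chaperone Hyou1 were 1.71-fold and 1.55-fold lower in Malt1-/- cells at 72 h (adjusted p = 0.0113 and 0.0441). The lectin chaperone Calr and the secreted ER factor Creld2 were 2-fold and 1.55-fold lower in WT cells at 72 h (adjusted p = 0.00656 and 0.00826). The Hyou1 call ended with any 1 of 7 arrays left out, the Pdia6 call without Malt1-/- Th17 replicate 2 and the Creld2 call without WT Th17 replicate 3. The Pdia6 call was also lost with the mean of its probes (limma adjusted p = 0.0986). The Calr call was kept with each array left out but lost without the 8 arrays named above and with only the contrast's arrays (adjusted p up to 0.114). The Hsp90b1 call in Malt1-/- cells at 72 h was lost under median scaling (adjusted p = 0.0639). Dnajb9, Dnajc3, Sdf2l1, Pdia4 and Manf were not called, nor was Xbp1, the factor that IRE1 activates by splicing, whose splice form these arrays do not separate.

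Neighbouring gene lists of the same pathways also held genes that differed between lineages. Of all genes, 9.16% and 9.2% were called lower at 72 h and 8.72% and 7.26% at 48 h (Malt1-/- and WT). The shares called higher were 11.6% and 9.66% at 72 h and 9.83% and 10.2% at 48 h. Several of the counts that follow lie near these shares. Among 18 other genes linked to ATF4 and amino acids that were tested, 6 and 4 were called lower in Th17 cells at 72 h and 3 and 4 at 48 h (Malt1-/- and WT), while 1 and 0, and 2 and 2, were called higher. Cth, which makes cysteine, was lower in all 4, with differences of -2.90 and -2.52 at 72 h and -1.88 and -2.28 at 48 h, as was the aminotransferase Gpt2, with -2.55 and -1.72 at 72 h and -1.80 and -1.09 at 48 h. At 48 h Cth was detected on 0 of 5 Malt1-/- Th17 arrays, so it was at least 2.69-fold lower there. In the other direction, Slc16a10 of the same list was higher in Th17 cells at 72 h in Malt1-/- cells (1.44). At 48 h it was higher in both genotypes (1.72 and 1.39). Of 18 aminoacyl-tRNA synthetases tested, which charge tRNAs with amino acids, 3 and 7 were lower at 72 h and 3 and 4 at 48 h, and 1 (Hars, Malt1-/-, 48 h) was higher. Among 30 other tested genes of ER folding, degradation and export, 8 and 5 were lower at 72 h and 3 and 3 at 48 h, and 1 and 0, and 1 and 3, were higher. The ER membrane protein gene Selenos was lower in all 4 (-1.38 and -1.05 at 72 h, -0.81 and -0.90 at 48 h). So were Pdia5 (-1.84 and -1.60 at 72 h, -0.76 and -1.16 at 48 h) and Ssr2 (-0.76 and -0.75, and -0.45 and -0.40). Ssr4 was higher in Malt1-/- cells at 72 h (0.27) and in both genotypes at 48 h (0.38 and 0.33). Of 12 stress sensors and translation factors tested, 2 and 3 were lower at 72 h and 2 and 1 at 48 h, and 1 was higher in Malt1-/- cells at each time. The interferon-induced eIF2 kinase gene Eif2ak2 was lower in all 4, with -2.57 and -2.14 at 72 h and -2.33 and -1.82 at 48 h. The ER sensor gene Ern1, which encodes IRE1, was lower in Malt1-/- cells at 72 h (-1.85, adjusted p = 2.58e-05). Of 11 cytosolic heat shock genes tested, 3 and 1 were lower at 72 h and 0 and 3 at 48 h, with 1 higher in each comparison, and of 8 oxidative stress genes 1 was lower and 2 were higher, all in Malt1-/- cells at 72 h. The heat shock gene Dnajb1 was higher at 72 h in both genotypes (0.58 and 0.54) and at 48 h in WT cells (0.42).

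Loss of Malt1 moved few members past the threshold. In Th17 cells, 1 member was called lower and 1 higher at 48 h, where 2.97% and 3.41% of all genes were, and 1 lower and 0 higher at 72 h (1.53% and 2.89%). In Th1 cells 0 were called at 48 h (0.606% lower and 0.783% higher among all genes), and at 72 h 0 lower and 1 higher (0.923% and 1.85%). These shares lie close to those of all genes. At an unadjusted p under 0.05 limma had 7 members at 72 h and 11 at 48 h in Th17 cells, and 3 at 72 h and 8 at 48 h in Th1 cells. The share of all genes under that unadjusted threshold is not given here or below. All 5 enzymes of amino acid and one-carbon synthesis lay below 0 at 48 h in both lineages, with medians of -0.45 in Th17 and -0.48 in Th1 cells, and 0 of them were called. The array-weighted fit called 2 members in Th1 cells at 48 h, where it called 3.73% of all genes. In Th17 cells at 48 h it called 14 members, and 21.8% of all genes. At 48 h, 24 of 35 members in Th17 cells and 28 in Th1 cells lay below 0 (68.6% and 80%, against 50.8% and 47.9% of all genes), with medians of -0.10 and -0.26, against -0.01 and 0.01 for all genes. Under median scaling of the arrays the Th17 median at 48 h turned to 0.09, where the median of all genes also moved up by 0.18. At 72 h, 19 and 17 members lay below 0, with medians of -0.08 in Th17 cells (0.12 under median scaling) and 0.02 in Th1 cells.

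**Figure D4:**
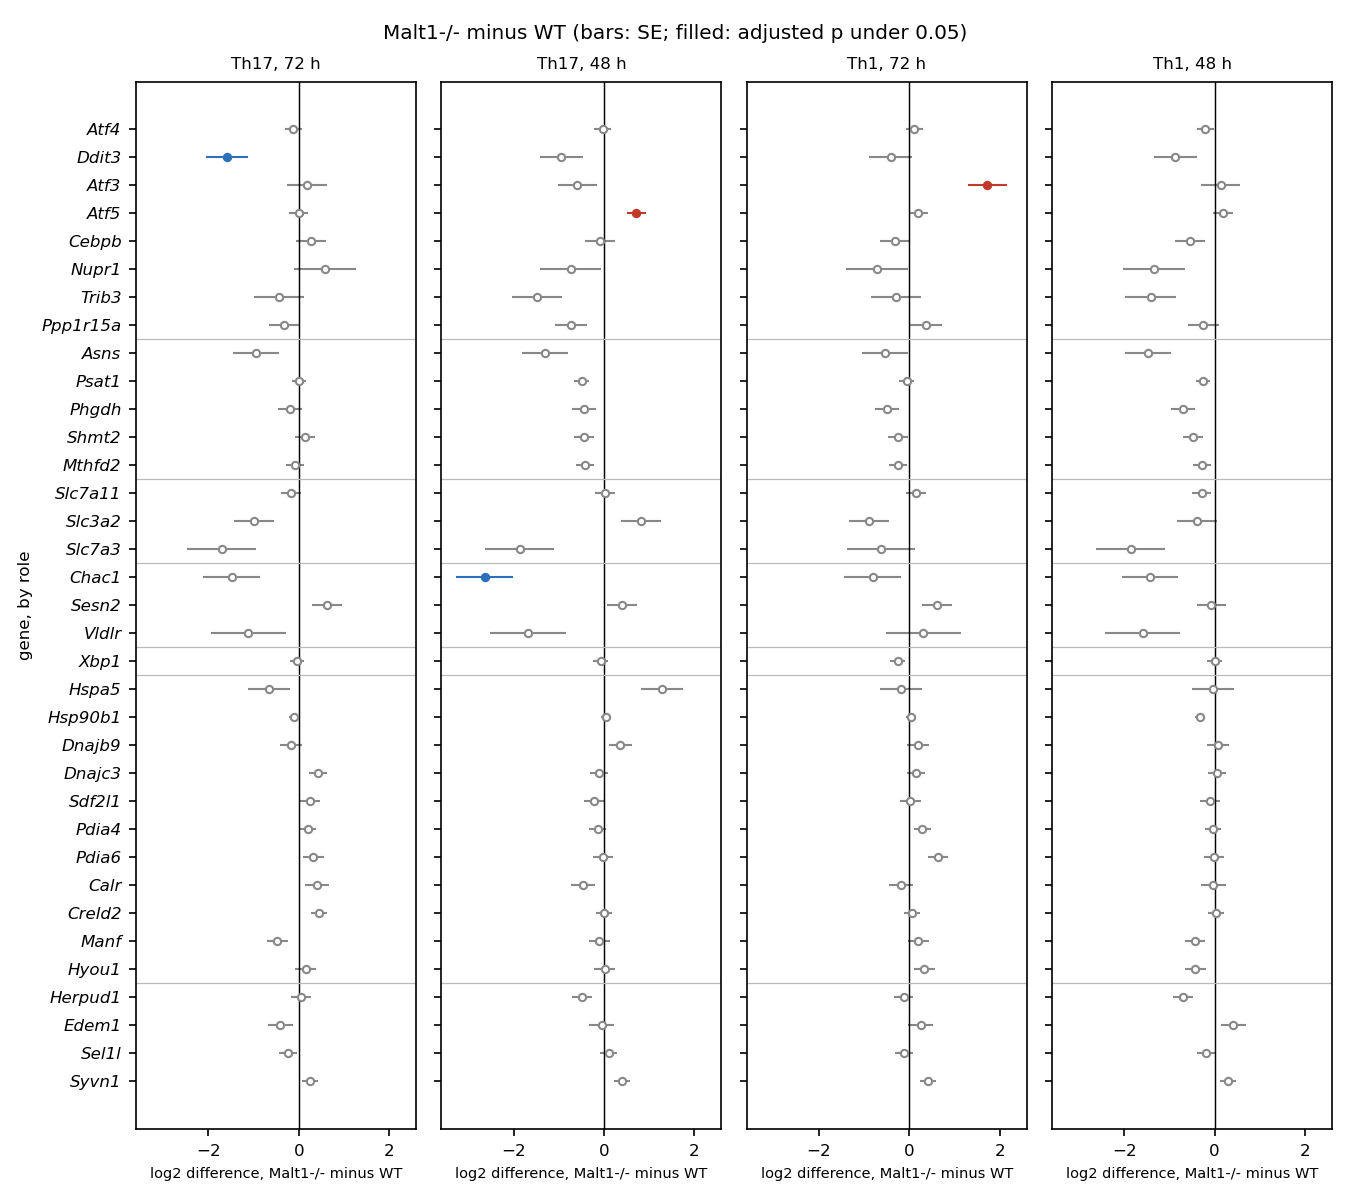
Malt1-/- minus WT difference in log2 units for each tested member, with bars of 1 SE, in 4 panels by lineage and time (5 arrays per group). The filled points are the 4 calls: Chac1 lower and Atf5 higher in Th17 cells at 48 h, Ddit3 lower in Th17 cells at 72 h and Atf3 higher in Th1 cells at 72 h.

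The 4 genotype calls fell on different genes. Chac1 read 6.23, 5.91, 5.76, 5.72 and 6.49 in Malt1-/- Th17 cells at 48 h, against 9.25, 9.43, 9.10, 10.04 and 5.50 in WT Th17 cells. WT replicate 5 lay below all Malt1-/- arrays and the other 4 WT arrays lay far above them. The difference was -2.64 (SE 0.63, 6.24-fold lower, limma adjusted p = 0.012), with an exact permutation p of 0.0476, two-sided over the 10 arrays. The smallest exact p that 5 against 5 arrays allow is 0.00794. Atf5 read 8.64, 8.39, 8.60, 8.59 and 8.76 in Malt1-/- Th17 cells and 7.99, 7.86, 7.74, 7.98 and 7.82 in WT Th17 cells at 48 h, without overlap. Atf5 was 1.64-fold higher (0.72, SE 0.21, adjusted p = 0.0403, exact permutation p = 0.00794). Leaving out any 1 of 9 of the 10 arrays, all except WT replicate 5, ended the Atf5 call (adjusted p up to 0.0858), as did testing with no detection filter (0.0599), while the Chac1 call was kept in all of these. Ddit3 read 7.76, 7.19, 7.25, 7.19 and 7.11 in Malt1-/- Th17 cells at 72 h and 9.30, 9.82, 9.54, 7.29 and 8.49 in WT Th17 cells, where replicate 4 lay within the Malt1-/- range. It was 3.01-fold lower (-1.59, SE 0.47, adjusted p = 0.047, exact permutation p = 0.0159), and 8 of the 10 single-array omissions ended the call (adjusted p up to 0.181), as did 4 of 11 other alternatives (up to 0.122).

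The one genotype call in Th1 cells was Atf3. At 72 h it read 10.72, 9.40, 10.92, 10.59 and 10.73 in Malt1-/- Th1 cells and 9.49, 9.21, 9.20, 7.40 and 8.43 in WT Th1 cells, overlapping only through Malt1-/- replicate 2 and WT replicate 1. The difference was 1.72 (SE 0.44, 3.31-fold higher, adjusted p = 0.0198, exact permutation p = 0.0159). Without Malt1-/- replicate 1, Malt1-/- replicate 3 or WT replicate 4 the call ended (adjusted p up to 0.0534), as it did with only the contrast's arrays (0.0772). Its 72 h difference in Th17 cells was 0.18 (adjusted p = 0.848), and the difference between these effects was not called.

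The number of members called between genotypes depended on single arrays. Without WT Th17 48 h replicate 5, Malt1-/- Th17 cells had 8 members lower and 1 higher, while the share of all genes called was 5.22% lower and 5.55% higher. That array was lowest of its group for 17 of the 19 amino acid and ATF4 genes and lay nearest to the Malt1-/- Th17 48 h group. Leaving it out therefore widens these differences in part by construction, and the values that follow show only how much rests on it. The 8 were Chac1 (-3.43, adjusted p = 0.000228), Slc7a3 (-2.49, 0.0307), Trib3 (-2.07, 0.0107), Asns (-1.91, 0.00754), Shmt2 (-0.70, 0.0243), Psat1 (-0.66, 0.00598), Herpud1 (-0.66, 0.0452) and Mthfd2 (-0.63, 0.0302), in log2 units with limma adjusted p. With all arrays their differences were -2.64, -1.87, -1.49, -1.31, -0.44, -0.50, -0.49 and -0.43. Asns shows the pattern: it read 9.63, 9.91, 10.02, 10.14 and 10.15 in Malt1-/- Th17 cells and 12.12, 11.81, 11.73, 11.85 and 8.90 in WT Th17 cells, 4 WT arrays above and 1 below all Malt1-/- arrays. Hspa5 was higher in all 5 Malt1-/- Th17 arrays than in any WT Th17 array at 48 h (1.28, SE 0.46) and missed the threshold (adjusted p = 0.0877). At 72 h, leaving out WT Th17 replicate 4 added Chac1 (-2.05, adjusted p = 0.0385) and Slc7a3 (-2.37, adjusted p = 0.0482) to Ddit3, with 2.68% of all genes lower. That array was lowest of its group for 12 of the 19 amino acid and ATF4 genes, so the same limit holds. In Th1 cells at 48 h 1 member was called without Malt1-/- replicate 2 or without WT replicate 1. The myeloid marker signal given above was also higher in the Malt1-/- Th17 groups of these comparisons.

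Leaving out all 8 arrays that lay closer to another group raised these counts, which it does in part by construction, since it removes the arrays nearest the other groups. Malt1-/- Th17 cells at 48 h then had 13 members lower and 1 higher (7.58% and 7.81% of all genes), and Malt1-/- Th1 cells at 48 h had 8 lower and 0 higher (1.66% and 1.6%). Those 8 in Th1 cells were Slc7a3, Vldlr, Trib3, Nupr1, Chac1, Asns, Ddit3 and Herpud1, with differences of -0.99 (Herpud1) to -2.87 (Slc7a3). At 72 h, Malt1-/- Th17 cells had 6 lower and 1 higher (7.08% and 8.62%), and Malt1-/- Th1 cells 0 lower and 1 higher (2.32% and 2.83%).

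Around the members, genotype calls in the neighbouring lists were also few and mostly downward. In Malt1-/- Th17 cells at 48 h the subunits of the eIF2B exchange factor Eif2b5 and Eif2b2 fell by 0.45 and 0.44, and the haem-regulated eIF2 kinase gene Eif2ak1 fell by 0.43 (adjusted p = 0.0179, 0.0473 and 0.0355), 3 of 12 in that list. Seryl-tRNA synthetase (Sars) fell by 0.82 (adjusted p = 0.0342), the growth inhibitor gene Ddit4 by 1.09 (0.0245) and Gpt2 by 1.23 (0.0315), while the carrier Slc7a6 rose by 0.66 (0.0476). Ddit4 was also lower at 72 h (-1.03, adjusted p = 0.0392). In Th1 cells at 48 h the synthetases Vars (-0.59, adjusted p = 0.0169) and Hars (-1.07, 0.018) and the neutral amino acid carrier Slc1a4 (-1.30, 0.0411) were lower. None of these calls was kept throughout. Those of 8 genes were lost under median scaling, Ddit4 at both times. Slc7a6 lost its call with any 1 of the 10 arrays left out, with no detection filter, with the mean of its probes and with the replicate number as a block (adjusted p = 0.0557 with the block, and up to 0.192). Slc1a4 lost its call with any 1 of 7 of the 10 arrays left out, with no background correction, in the authors' value table, with no detection filter and with only the contrast's arrays (adjusted p up to 0.154). In the list of other ER genes limma called 0 of 30 in any genotype comparison (3 to 5 at an unadjusted p under 0.05), as in the lists of cytosolic heat shock (0 of 11, up to 2 unadjusted) and oxidative stress genes (0 of 8, up to 3 unadjusted).

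Changes with time were called mainly in Th1 cells without Malt1. There 6 of 35 were called higher at 72 h and 0 lower, against 4.15% and 1.8% of all genes, and 29 lay above 0, with a median of 0.38, against -0.02 for all genes. In WT Th1 cells 1 was higher and 0 lower (5.57% and 4.92% of all genes), and in WT Th17 cells 0 were higher and 2 lower (4.97% and 7.36%). In Malt1-/- Th17 cells limma called 0 (0.578% of all genes higher and 0.121% lower), with 5 members at an unadjusted p under 0.05. With array weights 5 members were called there, and 9.36% of all genes. Vldlr in Malt1-/- Th1 cells read 9.56, 7.25, 9.27, 8.15 and 9.74 at 72 h, against 5.14, 7.92, 4.65, 6.38 and 5.14 at 48 h, where it was detected on 2 arrays. It rose by 2.95 (SE 0.83, adjusted p = 0.0291). Atf3 rose by 1.67 (adjusted p = 0.0186; values at both times as above), and Ddit3 by 1.62 (SE 0.47, adjusted p = 0.0355), with 9.43, 7.42, 9.19, 8.26 and 9.10 at 72 h and 6.35, 8.51, 6.60, 7.21 and 6.66 at 48 h. In Vldlr, Ddit3 and Atf3 the 2 times overlapped, replicate 2 being low at 72 h and high at 48 h. Over all genes tested, 72 h replicate 2 correlated better with the 48 h group (0.98866) than with its own (0.98385). Likewise, 48 h replicate 2 correlated better with the 72 h group (0.98873) than with its own (0.98802). Whether labels were exchanged cannot be told.

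Among ER members, Xbp1 rose with time in Th1 cells of both genotypes. It read 12.97, 11.87, 12.23, 12.20 and 12.47 at 72 h and 11.78, 11.96, 11.58, 11.71 and 11.85 at 48 h in Malt1-/- Th1 cells (overlapping through replicate 2, 0.57, SE 0.16, adjusted p = 0.0331). In WT Th1 cells it read 12.70, 12.80, 12.72, 12.01 and 12.80 at 72 h and 11.74, 11.94, 12.04, 11.86 and 11.32 at 48 h (0.83, adjusted p = 0.00249), where replicate 4 was the low array at 72 h. Hsp90b1 rose by 0.49 in Malt1-/- Th1 cells (adjusted p = 0.00881), the one rise there whose arrays did not overlap. Manf, a secreted survival factor of the ER, was detected on 4 arrays at 72 h and 0 at 48 h, at least 1.2-fold higher (adjusted p = 0.0259). In the list of other ER genes, 8 of 30 were higher at 72 h in Malt1-/- Th1 cells and 5 in WT Th1 cells, with 0 lower in either. In WT Th17 cells Shmt2 read 8.98, 9.85, 8.51, 8.69 and 9.19 at 72 h and 10.19, 10.25, 10.01, 10.14 and 8.86 at 48 h (-0.85, SE 0.22, adjusted p = 0.0132), and Creld2 read 9.14, 10.09, 8.62, 9.52 and 9.55 at 72 h and 9.96, 10.14, 9.70, 10.05 and 9.73 at 48 h (-0.53, adjusted p = 0.0395). Of the 9 time calls, 0 were kept under every left-out array and every alternative. Xbp1 in WT Th1 and Hsp90b1 in Malt1-/- Th1 cells were kept with each array left out but lost under median scaling, Xbp1 also with only the contrast's arrays (adjusted p up to 0.0739 for Xbp1 and 0.194 for Hsp90b1). The other 7 were lost with at least 1 array left out, with adjusted p up to 0.221. In Malt1-/- Th1 cells the count of 6 came to 1 to 3 without 72 h replicate 1, 3 or 5 or 48 h replicate 1, 3, 4 or 5. The highest count there with 1 array left out was 8. In WT Th17 cells the count of 2 came to 0 without 72 h replicate 3, to 1 without 48 h replicate 1, 2 or 4, and to 4 or 5 without 72 h replicate 2 or 5 or 48 h replicate 5. In WT Th1 cells it was 3 without 72 h replicate 4, and in Malt1-/- Th17 cells 1 without 72 h replicate 2. Without the 8 arrays closer to another group, 15 members were higher and 0 lower in Malt1-/- Th1 cells (9.52% and 8.1% of all genes). WT Th1 cells then had 4 higher and 1 lower (11.2% and 10.9%). In WT Th17 cells 3 were higher and 4 lower (11.4% and 12.9%), and in Malt1-/- Th17 cells 2 and 0 (3.72% and 1.48%). That removal raises counts in part by construction.

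Whether the Malt1 effect differed between lineages or times was tested directly. For 0 of the 35 members was the Malt1 effect in Th17 minus that in Th1 cells called, at 72 h or at 48 h (0.699% and 0.14% of all genes in either direction), with 2 and 1 members at an unadjusted p under 0.05. The Malt1 effect at 72 h minus that at 48 h was called for 0 members in Th17 and 0 in Th1 cells (0.121% and 0.0746% of all genes), with 5 and 3 at an unadjusted p under 0.05. Without the 8 arrays closer to another group, 3 members had a lower Malt1 effect in Th17 than in Th1 cells at 72 h: Ddit3 (-1.68, adjusted p = 0.0471), Atf3 (-1.95, 0.0389) and Edem1 (-1.28, 0.0228), against 1.85% of all genes.

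The members varied more between replicates than most genes, and in 6 of the 8 groups at least 12 of the 19 amino acid and ATF4 genes were lowest on the same array. The median member had a within-group SD of 0.37 and the 90th percentile over members was 1.01, against 0.32 and 0.51 for all genes. The widest was Vldlr (SD 1.40), followed by Slc7a3 (1.28), Nupr1 (1.15) and Chac1 (1.06), each above the 99th percentile of all genes, and the narrowest was Hsp90b1 (0.16, the 4.63rd percentile). In WT Th17 cells at 48 h, replicate 5 held the lowest value for 17 of the 19 amino acid and ATF4 genes, where 31.3% of all genes were lowest. In Malt1-/- Th1 cells at 72 h, replicate 2 was lowest for 14 of the 19 (19.1% of all genes). In Malt1-/- Th1 cells at 48 h, replicate 3 was lowest for 13 (22.9%) and replicate 2 highest for 17. In WT Th17 cells at 72 h, replicate 4 was lowest for 12 (16.2%) and replicate 2 highest for 16. In WT Th1 cells, replicate 4 at 72 h (25.6%) and replicate 1 at 48 h (19.8%) were each lowest for 12. In the Malt1-/- Th17 groups the commonest lowest array held 8 of the 19, replicate 2 at 72 h (19.2%) and replicate 1 at 48 h (25.4%), and the commonest highest array 7 at 72 h and 6 at 48 h. The ER members were lowest on the same array for 11 of 16 in Malt1-/- Th1 cells at 72 h (replicate 2) and for 9 in WT Th17 cells at 72 h (replicate 3, 29.6% of all genes). The count was 8 in Malt1-/- Th17 (replicate 2) and WT Th1 cells (replicate 4) at 72 h, 7 in WT Th17 cells at 48 h (replicate 5) and 5 in the other groups. In WT Th17 cells at 72 h and both Th1 groups at 48 h, the amino acid and ATF4 genes were most often lowest on another array.

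**Figure D5:**
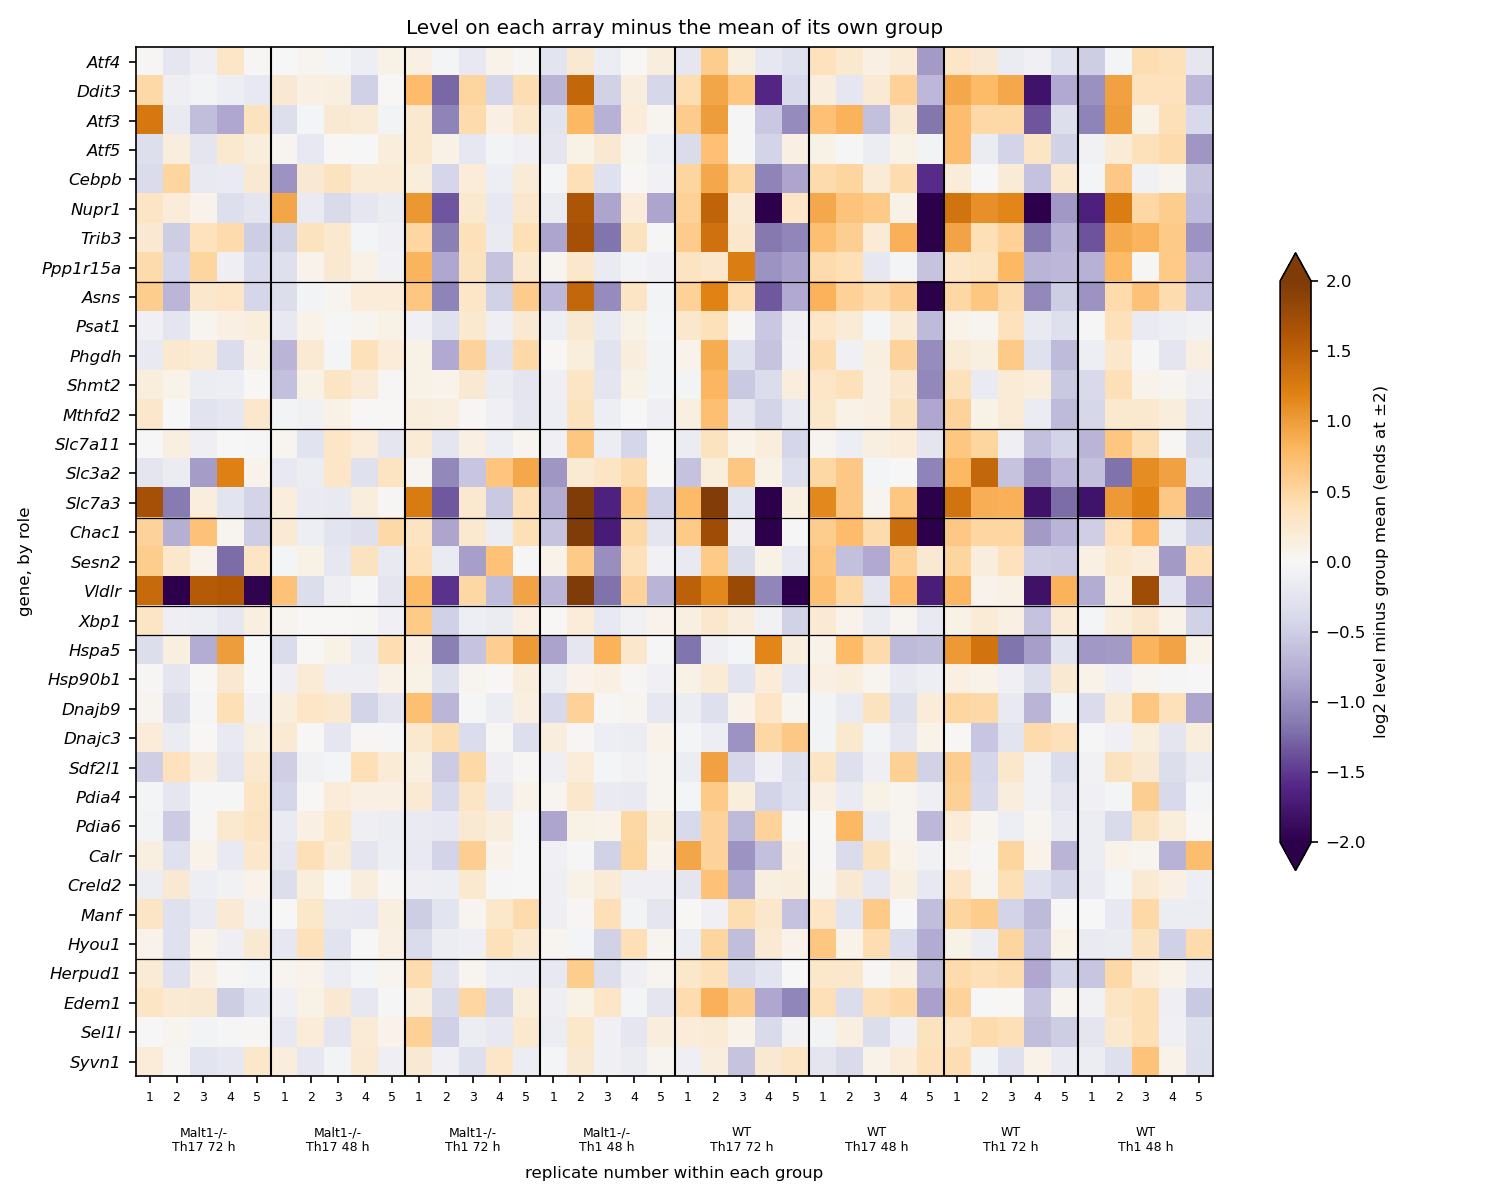
Deviation of each tested member (rows) on each of the 40 arrays (columns) from the mean of its own group, in log2 units, brown above and purple below. Some columns take mostly 1 colour across the amino acid and ATF4 rows, such as WT Th17 48 h replicate 5 in purple and Malt1-/- Th1 48 h replicate 2 in brown.

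Other probes gave a second reading of 14 tested members. Of their 19 further probes that passed the filter, 18 and 17 had the sign of the reported probe for Th17 minus Th1 at 72 h (Malt1-/- and WT) and 16 and 16 at 48 h, and 15 to 18 had it in the genotype comparisons. Most of the 19 were not called between lineages: 5 and 1 were at 72 h (Malt1-/- and WT) and 3 and 2 at 48 h. In Malt1-/- cells at 48 h, 1 further probe was called higher in Th17 cells, where the reported probes gave 0 higher.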

How the data were processed

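Total RNA of 40 samples was read on 1-colour bead arrays. The deposited probe signals are unnormalised intensity values, beside a deposited detection column that is a fraction (1 minus the detection p), per the file headers. The value table the authors deposited holds log2 values that matched the quantile-normalised raw signals centred on each probe's median to within 0.0149, its column medians being -0.00381 to 0.0034. Direction and scale are therefore known. No source used here names the software behind it.

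Signals were background-corrected with normexp from the detection values, offset by 16, quantile-normalised and log2-transformed (neqc, limma 3.58.1 in R 4.3.3). Of 45281 probes, 20739 had a detection p under 0.05 on at least 5 of 40 arrays. The platform annotation gave 1 gene symbol for 34885 probes, several for 18 and none for 10378. The kept probe with the highest mean stood for its gene (4274 genes had more than 1). A single limma fit of 8 groups gave 16 comparisons with empirical Bayes and Benjamini-Hochberg adjustment over 10730 genes, and was checked on simulated data. The 38 genes and the gene lists were chosen with earlier results of these data known. All members are named. Array values are given for members called between genotypes and, for lineage and time, for the 4 largest called rises and falls; context lists give up to 3 called genes per genotype comparison. The context genes named for the lineage comparisons were picked because of their results. A detection bound sets the brighter group's mean against the dim group's mean of, per array, the higher of the lowest detected signal and the probe's own signal.

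Replicate numbers did not pair the samples (140 same-numbered pairs, median correlation 0.014, 38 over 0.1), and no 2 arrays were duplicates. Alternatives were no background correction, median scaling, the authors' table, other detection filters, the mean of a gene's probes, only the arrays of the contrast, leaving out 8 arrays closer to another group or 1 array at a time, array weights, a replicate block and exact permutation tests.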

Additional observations from a re-analysis of the deposited data

Results flagged for a closer look

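Of 280 sets of 5 arrays (35 members in 8 groups), 22 held an array whose gap to its nearest neighbour passed Dixon's critical value of 0.71 of the range; chance flags about 5% of such sets, or 1 in 20 groups. Of the 22, 9 were on WT Th17 48 h replicate 5, all of them low. There Asns read 8.90 (others 11.73 to 12.12), Atf4 12.05 (13.10 to 13.32), Cebpb 8.74 (10.49 to 10.80), Chac1 5.50 (9.10 to 10.04) and Herpud1 11.73 (12.41 to 12.67). On the same array Mthfd2 read 11.18 (12.10 to 12.35), Nupr1 5.96 (8.36 to 9.18), Shmt2 8.86 (10.01 to 10.25) and Trib3 6.88 (9.40 to 10.07).

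Malt1-/- Th17 48 h replicate 1 had 3 such members, Cebpb at 9.25 (others 10.39 to 10.55), Nupr1 at 8.46 (7.14 to 7.37) and Pdia4 at 9.18 (9.61 to 9.77). In Malt1-/- Th17 cells at 72 h, Ddit3 was high on replicate 1 (7.76, others 7.11 to 7.25) and Sesn2 low on replicate 4 (4.80, others 6.10 to 6.62). In WT Th17 cells at 72 h, Sdf2l1 was high on replicate 2 (10.11, others 8.74 to 9.07). In Malt1-/- Th1 cells at 72 h, Atf3 was low on replicate 2 (9.40, others 10.59 to 10.92) and Creld2 high on replicate 3 (10.32, others 9.97 to 10.07). In WT Th1 cells at 72 h, Xbp1 was low on replicate 4 (12.01, others 12.70 to 12.80). In Malt1-/- Th1 cells at 48 h, Mthfd2 was high on replicate 2 (12.85, others 12.39 to 12.51). In WT Th1 cells at 48 h, Psat1 was high on replicate 2 (13.53, others 12.98 to 13.14), Manf high on replicate 3 (5.63, others 4.98 to 5.16) and Sesn2 low on replicate 4 (6.10, others 7.14 to 7.40).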

How the results depend on the processing

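No reported difference reversed its direction while called, and the counts of called members that moved by over 1.5 times are given here; the cause was not tested except where fewer arrays were fitted. For Malt1-/- minus WT the counts with all arrays were 2 (Th17, 48 h), 0 (Th1, 48 h), 1 (Th17, 72 h) and 1 (Th1, 72 h). In Th17 cells at 48 h they came to 1 with no detection filter, 7 with only the arrays of the contrast, 14 without the 8 arrays closer to another group and 14 with array weights. These settings called 2.31%, 10.8%, 15.4% and 21.8% of all genes. In Th1 cells at 48 h the counts came to 1, 8 and 2 with the last 3 of these settings (1.57%, 3.26% and 3.73% of all genes). In Th17 cells at 72 h they came to 0 under median scaling, no filter, the mean of all probes or only the arrays of the contrast, and 7 without the 8 arrays. There these settings called 1.22%, 1.57%, 4.04%, 0.541% and 15.7% of all genes. In Th1 cells at 72 h only the arrays of the contrast gave 0 (0.764% of all genes). For Th17 minus Th1, only the arrays of the contrast gave 3 in WT cells at 48 h (6 with all), 13 in Malt1-/- cells at 48 h (6, and 12 with array weights) and 3 in WT cells at 72 h (11), and no setting moved the 17 in Malt1-/- cells at 72 h as far. The fits of only the contrast's arrays called 13.2%, 29.5% and 7.19% of all genes, in that order. The array-weighted fit called 33.2% in Malt1-/- cells at 48 h. For 72 h minus 48 h, WT Th17 cells (2) had 0 under median scaling, 1 with no filter, 0 with only the contrast's arrays and 7 without the 8 arrays. There these settings called 1.79%, 5.39%, 0.00932% and 24.3% of all genes. Malt1-/- Th17 cells (0) had 3 with only the contrast's arrays, 2 without the 8 arrays and 5 with weights (3.3%, 5.2% and 9.36% of all genes). WT Th1 cells (1) had 0 under median scaling or with only the contrast's arrays, 5 without the 8 arrays and 3 with weights (3.41%, 0.00932%, 22.1% and 17%). Malt1-/- Th1 cells (6) had 15 without the 8 arrays and 11 with weights (17.6% and 18.4%). The Malt1 effect in Th17 minus Th1 cells at 72 h (0) had 3 without the 8 arrays (3.23% of all genes). Leaving out 1 array at a time gave counts of 1 to 9, 0 to 1, 0 to 3 and 0 to 1 in the 4 genotype comparisons in the order above. It gave 3 to 7 (WT, 48 h), 4 to 9 (Malt1-/-, 48 h), 7 to 14 (WT, 72 h) and 11 to 16 (Malt1-/-, 72 h) between lineages, and 0 to 5 (WT Th17), 0 to 1 (Malt1-/- Th17), 1 to 3 (WT Th1) and 1 to 8 (Malt1-/- Th1) between times. With the replicate number as a block the counts were 2, 0, 1 and 1 between genotypes, 6, 6, 11 and 16 between lineages and 2, 0, 1 and 7 between times, in the orders above; 6 of 40 arrays correlated best with one of their own number, so the numbers are not taken as pairs. Signals near the detection floor, as for Slc7a11, Manf and Atf3 in Th17 cells, limit what folds can be given.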
